A study of Mus musculus with 4 samples.

Results

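Serine-threonine protein kinases, with subunits and regulators that share their gene names, were examined in a list of edited RNA sites from young mouse cortex. The members were the genes whose symbol starts with Mapk, Map2k, Map3k, Map4k, Prk, Csnk, Cdk, Stk, Gsk3, Camk, Dyrk or Mark followed by a digit, leaving out Camk2a, Camk2b and Camk2n1. They numbered 64 of the 4206 gene symbols in the list and held 516 of its 28412 sites. By their known function, 53 of the 64 encode a protein with an active kinase domain (400 sites). The other 11, with 116 sites, are not active kinases, so the group is described as kinases and kinase regulators. They are the regulatory subunits Prkar1a, Prkar1b, Prkar2a and Prkab2, the CDK5 activators Cdk5r1 and Cdk5r2, the CDK inhibitors Cdkn1a and Cdkn1b, the CaMKII inhibitor Camk2n2, the scaffold Mapk8ip3 and the pseudokinase Camkv. The MAP2K and DYRK enzymes also phosphorylate tyrosine.

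The sites come from scDART-seq, in which a fusion of the cytidine deaminase APOBEC1 with an m6A-binding YTH domain turns cytosines beside N6-methyladenosine (m6A) into uracils, which are read as T. The 4 samples are sublibraries of a single pool of cortical cells that mixed the genotypes APOBEC1-YTH and APOBEC1-YTHmut, whose YTH domain is mutated, with replicates 1 and 2 pooled. Every mouse started at 6 to 8 weeks on tamoxifen, 20 mg/kg each 24 h for 5 days, and the cortex was dissociated with papain 7 days after dosing ended and barcoded by split-pool labelling. The list has no column for sample, genotype or cell type, so there are no replicates, no test could be made, and the values are comparisons within 1 list. The sources used here give neither the driver of the transgene nor the number of animals. Each site carries an unlabelled whole number, here the site count, which ran from 3 to 225 in these genes. What it counts is not stated, read depth is unknown, and expression is not in the list. In a gene with few or no sites, low expression, thin coverage, little editing and filtering cannot be told apart, and the labelled tissue cannot be checked against expression markers.

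These kinases add phosphate to serine or threonine residues of other proteins and relay signals from receptors, calcium and cyclic nucleotides. In cortical neurons, protein kinase A (PKA), protein kinase C (PKC) and the CaM kinases act at synapses, the MAP kinase cascade carries growth factor and activity signals to the nucleus, and CDK5 and GSK3 phosphorylate proteins of the cytoskeleton. m6A is laid down on messenger RNA most often near the stop codon and in the 3' UTR, and is known to affect RNA decay, translation and localisation. In the sequence notation, RAC stands for an edited C that follows AA or GA. DRACH stands for RAC flanked by any base but C upstream and any base but G downstream.

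The 3 highest site counts were in the 3' UTRs of Csnk1e, Prkce and Cdk5r1. Csnk1e encodes casein kinase 1 epsilon, which phosphorylates clock and Wnt pathway proteins. It had a site count of 225 at 79419089 of chromosome 15. Prkce, the calcium-independent PKC epsilon, had 210 at 86655347 of chromosome 17, and Cdk5r1, the main activator of CDK5 in neurons, had 209 at 80480484 of chromosome 11 (coordinates are 1-based on mm10). A further Cdk5r1 site, at 114, was the only other member site with a count of 100 or more. All other member genes had a highest count of 84 or less.

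To show the context of the strongest sites, 21 nt around the edited C are given for 8 genes from GENCODE M21 transcripts, 5' to 3', with RAC in capitals. They are the top sites of the genes with the highest site counts other than Csnk1a1, for which no sequence is shown, and Csnk1e and Cdk5r1, whose top sites appear further on in 30-nt stretches.
Prkce: gaactctaAACattacaaaaa
Camk2d: aaagcaaaAACttaaacaccc
Prkcb: cccacacaAACacacatttct
Cdk12: actaaacaGACggaaaaggaa
Prkar1b: tgtcccttGACttccaaacac
Gsk3b: gtatgacaGACaaaaaaaaaa
Camk1d: tactgactGACtcaaggggag
Camkk2: aaggacttGACtccatgtcgt
They lie at chr17:86655337-86655357 on the plus strand, chr3:126844325-126844345 on the plus strand, chr7:122633456-122633476 on the plus strand, chr11:98203740-98203760 on the plus strand, chr5:139017691-139017711 on the minus strand, chr16:38241142-38241162 on the plus strand, chr2:5298778-5298798 on the minus strand and chr5:122733809-122733829 on the minus strand. Their site counts were 210, 72, 68, 66, 63, 43, 40 and 36. The windows differ in composition: those of Gsk3b, Prkce, Camk2d and Cdk12 hold 14, 12, 12 and 12 A among 21 bases, and those of Prkar1b and Camkk2 hold 5 each. None of the 8 edited C stands in GGACT, while Prkar1b, Camk1d and Camkk2 share TGACT.

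The number of sites varied widely between the genes. The median member had 3.5 sites, against 2 in all other listed genes. Of the 64 members, 15 (23.4%) had 10 or more sites, where 16.9% of all listed genes did, and these 15 held 352 of the 516 sites (68.2%), near the 67.1% held by such genes over the whole list. At the other end, 20 members (31.2%) had 1 site each, against 37.0% of all other listed genes. Prkce with 57 sites, Prkar1b with 36 and Cdk5r1 with 30 together held 123 sites, or 23.8%. The median site count was 5 among the members and 4 among all other genes. A count of 20 or more was carried by 64 member sites (12.4%) in 18 genes, close to the 12.1% of the whole list.

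**Figure D1:**
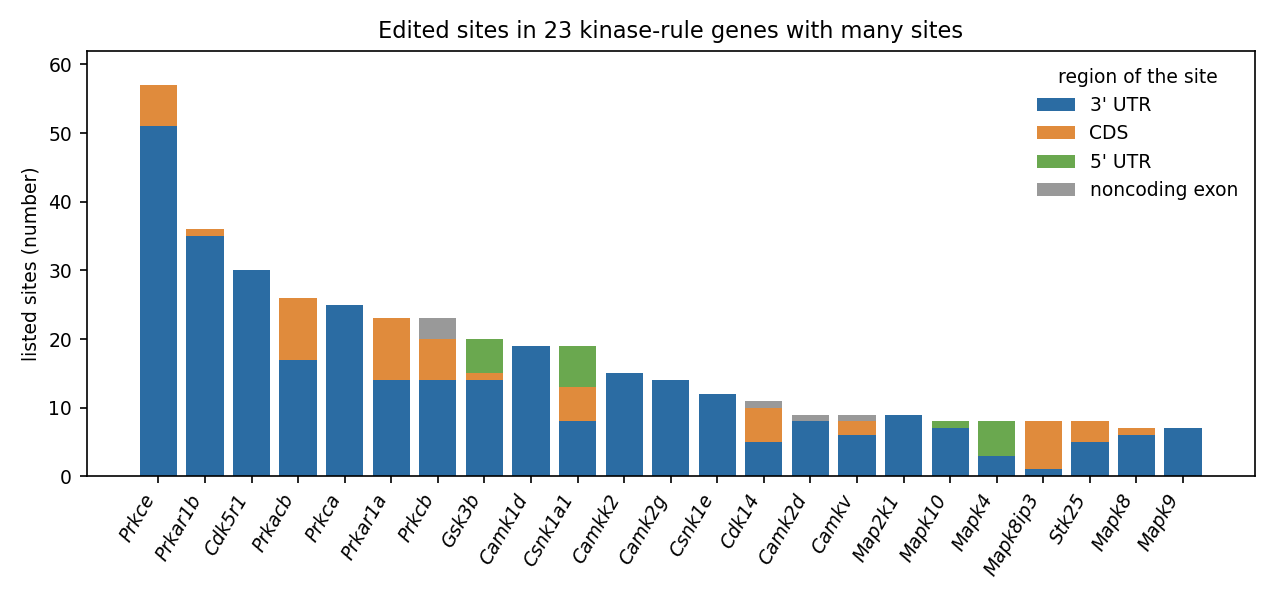
Number of listed sites (y axis) in 23 of the 25 member genes with the most sites (x axis), with bars stacked by the region of the site. Prkce leads with 57 sites, and sites in the 3' UTR make up most of the bar in most genes, while Mapk8ip3 has 7 of its 8 sites in the CDS.

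**Figure D2:**
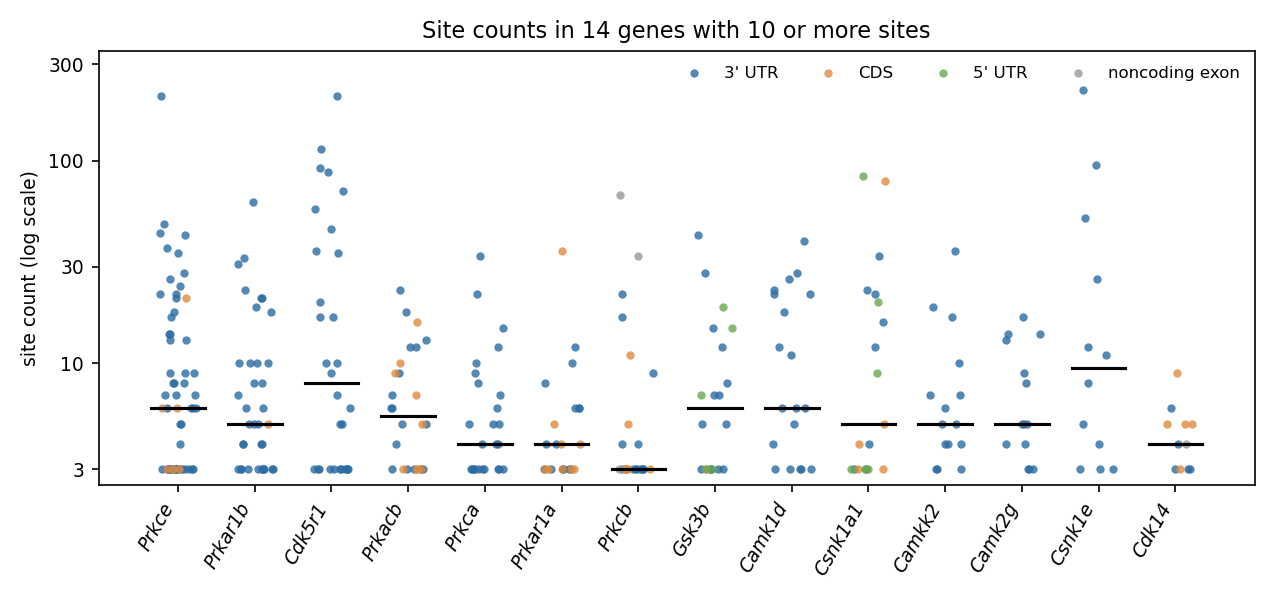
Site count of every site (points, log scale) in 14 of the 15 member genes with 10 or more sites, coloured by region, with the median as a black line. The medians lie between 3 and 9.5, and the 4 sites above 100 belong to Prkce, Cdk5r1 and Csnk1e.

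The annotation holds 184 protein-coding genes that match the symbol rule, and 64 of them (34.8%) had a listed site, where 17.4% of all annotated protein-coding genes had one. In a list of 91 annotated other serine-threonine kinases the share was larger, at 51 genes. These shares are not adjusted for expression, which is not in the site list. The member share differed between families, which were grouped by symbol and so also hold genes that are not kinases, such as Mapk8ip3. Both GSK3 genes were listed, as were 6 of 9 PKA and PKG genes and 6 of 9 casein kinase genes. So were 7 of 11 genes with Camk symbols, leaving out Camk2a, Camk2b and Camk2n1, and 5 of 12 PKC and PKD genes. Listed were also 15 of 42 genes with Cdk symbols, 9 of 31 MAP2K, MAP3K and MAP4K genes and 2 of 7 AMPK genes. The same held for 6 of 23 genes with Mapk symbols, 2 of 4 MARK genes, 1 of 5 DYRK genes and 3 of 23 STK genes. No site was listed for Cdk5 itself or for Mapk3, Csnk1d, Dyrk1a and Prkar2b in the data used here; these were picked out after the values were seen.

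Of the member sites, 385 (74.6%, 95% Wilson interval 70.7 to 78.2) lay in the 3' UTR, against 62.9% of the sites of other protein-coding genes. The CDS held 102 sites, or 19.8% (16.6 to 23.4), against 31.6%. The 5' UTR held 18 sites (3.49%, against 2.13%) and exons of noncoding transcripts 11 (2.13%, against 3.32%). These intervals cover counting error only, and since the sites of a gene share their transcript they are too narrow. With 1 site per gene, the one with the highest count, the 3' UTR share was 57.8% in the members (45.6 to 69.1) and 54.9% in other protein-coding genes (53.3 to 56.5). The intervals of these shares overlap, and over all sites but those of Prkce, Prkar1b and Cdk5r1 the member share was 68.4%. A list of other serine-threonine kinases had 47.7% of its 346 sites in the 3' UTR.

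**Figure D3:**
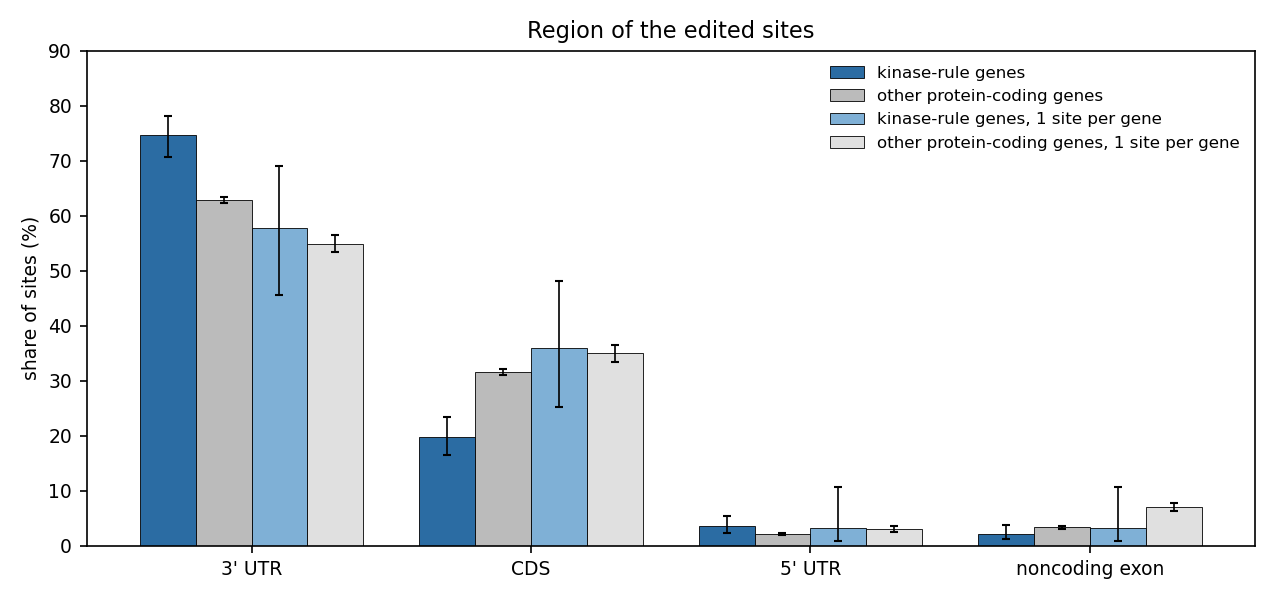
Share of sites (y axis, percent) in each region for the member genes and for other protein-coding genes, over all sites and with 1 site per gene; bars are shares and error bars 95% Wilson intervals (counting error only). The member bar for the 3' UTR is 74.6% over all sites and 57.8% with 1 site per gene, next to 62.9% and 54.9% in other protein-coding genes.

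Over all sites, the members had more of their sites far into the 3' UTR, a gap that was small with 1 site per gene. On the longest coding transcript, which held 484 of the 516 sites, the distance after the stop codon had a median of 574 nt, against 224 nt in other protein-coding genes. With 1 site per gene the medians were 167 nt and 119 nt. Within 400 nt of the stop codon lay 26.4% of member sites (22.7 to 30.6), against 30.4%, and 32.2% (28.2 to 36.5) lay more than 1000 nt after it, against 24.3%. The shares beyond 1000 nt became 18.3% in the members and 17.3% in other protein-coding genes with 1 site per gene.

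**Figure D4:**
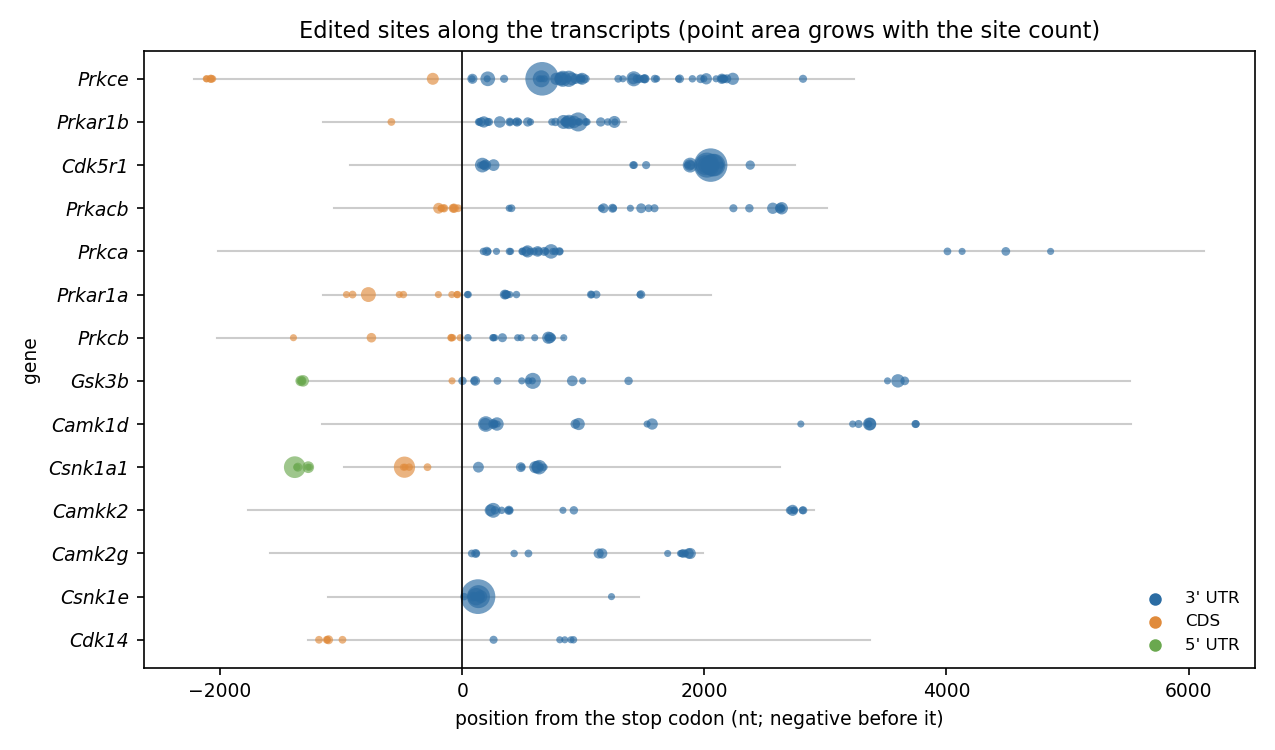
Position of each site from the stop codon (x axis, nt) in 14 of the 15 member genes with 10 or more sites; grey lines span the CDS and 3' UTR of the longest coding transcript, sites on other transcripts are placed by their own stop codon, sites on noncoding exons are not shown, colour gives the region and point area grows with the site count. Cdk5r1 has its largest points 2011 to 2079 nt after the stop codon, Csnk1e at 130 nt, and Prkar1a and Prkacb have sites on both sides of the stop codon.

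The sequence context of the member sites was close to that of other protein-coding genes. RAC held 410 of the 512 sites with a full context (80.1%, 76.4 to 83.3), against 78.4%, and DRACH held 289 (56.4%, 52.1 to 60.7), against 55.3%. All 324 member sites with a count of 4 or more and a full context were RAC, as were all 16333 such sites of the other genes. The filters on sites are not stated. The 102 sites outside RAC all had the count of 3, and 69 of them lay within 10 nt of a RAC site of the same gene. This nearness was not counted in the other genes, so it is not given as a trait of the members. AAACA was the commonest RAC context, with 52 of 410 sites (12.7%, against 13.8%). AAACT made up 9.51% (7.04 to 12.7) against 6.39%, and TGACT 7.07% (4.97 to 9.97) against 4.18%. TGACA made up 5.61% against 4.74%, GAACA 4.88% against 5.43%, AGACA 4.1% against 6.1% and GGACC 0.488% against 1.14%. As sites of a gene share their transcript, these intervals too are too narrow, and contexts were not compared with 1 site per gene. GGACT made up 1.46%, against 1.67%. Sites came in clusters to a similar degree, as 47.9% of member sites and 47.5% of the others had another site of their gene within 10 nt.

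Among the 99 member CDS sites with a codon on the longest coding transcript, reading the edited C as T left the amino acid unchanged at 49 (49.5%), changed it at 37 (37.4%) and made a stop codon at 13 (13.1%, 7.84 to 21.2). In other protein-coding genes the shares were 48.5%, 40.1% and 11.4%. In scDART-seq the edits are made by the fusion protein, so these shares are given as properties of the positions. Whether other differences from C to T were filtered out is not stated.

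PKA is a tetramer in which regulatory subunits hold catalytic subunits inactive until cAMP binds. Its genes held 87 sites. Prkar1b, the neuronal type I beta regulatory subunit, had 36, of which 35 lay in the 3' UTR. Its 3' UTR of 1353 nt held 25.9 sites per kb, the most among the 15 genes on their longest coding transcripts, and 26 of its 45 RAC cytosines (57.8%) were listed. The median over the 15 genes was 15.5%, and over 670 other protein-coding genes with 10 or more sites it was 15.8%. Csnk1e enters the first median at 0%, as its sites lie on a coding transcript other than the longest. The highest counts of Prkar1b were 63, 33 and 31, with 63 at 958 nt after the stop codon, and its median was 5. To show how strong and weak sites stand side by side, a 30-nt stretch with 5 edited C in capitals is given (chr5:139017776-139017805, minus strand). The stretches of this length shown here and for other genes are among those with the most sites, a choice made after the values were seen.
Prkar1b: ttggagaCcccaaggaaCagCaagcaaCtC
In order along the transcript the site counts were 3, 21, 3, 33 and 3, and 3 of the 5 C were RAC. Both counts of 3 outside RAC stand within 10 nt of a higher count, and the other count of 3 is itself at RAC.

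Prkar1a, the type I alpha regulatory subunit that most tissues use, had 23 sites, 14 of them in the 3' UTR and 9 in coding sequence. A CDS site 775 nt before the end of the stop codon held the highest count, 36, and the next was 12. Prkacb, the catalytic subunit beta, had 26 sites with counts from 3 to 23, of which 17 lay in the 3' UTR and 9 in coding sequence, none more than 195 nt before the end of the stop codon. Prkaca, the catalytic subunit alpha, had 1 site with a count of 6, and Prkar2a 1 with a count of 3. Per kb of 3' UTR, Prkacb had 5.64 sites and Prkaca 0.975. Prkg1, the cGMP-dependent kinase, had CDS sites with counts of 16 and 7. Of the AMPK subunits, which sense low cellular energy, Prkaa2 and Prkab2 had 1 site each, both at a count of 3.

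Conventional PKC enzymes respond to diacylglycerol and calcium, forms such as PKC epsilon to diacylglycerol alone, and the atypical forms to neither. Prkce led all members with 57 sites, 51 of them in the 3' UTR and 6 in coding sequence. Its site counts ran from 3 to 210 with a median of 6, the second was 49, and 13 sites had 20 or more. Of the 74 RAC cytosines in its 3' UTR, 36 (48.6%) were listed, and its sites there ran from 81 to 2815 nt after the stop codon. The site at 210 stood apart from the rest, which had 49 or less. Prkca, the conventional alpha form, had 25 sites, all in the 3' UTR, with counts from 3 to 34. Prkcb, the beta form, had 23, with 14 in the 3' UTR, 6 in the CDS and 3 in an exon of a noncoding transcript. That exon held its highest counts, 68 and 34, the 68 at 122633466 of chromosome 7. The atypical zeta form, Prkcz, had 3, at 4, 3 and 3, and the 41 nt around 1 of them also occur in Prkcz2. Per kb of 3' UTR, Prkce had 15.8 sites, Prkcb 10.7 and Prkca 4.08. The Prkcb value counts only the 9 of its 14 3' UTR sites that lie on the longest coding transcript, while for Prkce and Prkca all count.

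Casein kinases act without a second messenger on many targets. Besides its 225, Csnk1e had counts of 95, 52 and 26, and 10 of its 12 sites lay within 65 nt, from 89 to 153 nt after the stop codon. These sites lie in the 3' UTR of a coding transcript other than the longest one. Csnk1a1, casein kinase 1 alpha, had 19 sites, of which 8 lay in the 3' UTR, 5 in coding sequence and 6 in the 5' UTR. A 5' UTR site held the highest count, 84, and a CDS site the next, 80, 477 nt before the end of the stop codon, where reading T leaves the amino acid unchanged. Csnk1g3, Csnk1g1 and Csnk1g2, the gamma forms, had 4, 3 and 1 sites, and Csnk2a2, a catalytic subunit of CK2, had 1 with a count of 14. To show how close the Csnk1e sites stand, 30 nt with 6 edited C in capitals are given, at chr15:79419066-79419095 on the minus strand.
Csnk1e: gaaaaaCaaaCaaaCcacaaaaCCcacaaC
The site counts along this stretch were 225, 95, 5, 11, 3 and 26.

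CDK5 is active in neurons only with an activator, and Cdk5r1 and Cdk5r2 encode these. All 30 Cdk5r1 sites lay in the 3' UTR. Site counts ran from 3 to 209 with a median of 8, and 10 were 20 or more. Of the 30 sites, 13 stood within 82 nt, from 1998 to 2079 nt after the stop codon, including 7 of the 10 with 20 or more. A smaller group lay 151 to 259 nt after the stop codon, with a highest count of 35. The stretch with the highest site, at chr11:80480475-80480504 on the plus strand, holds 6 edited C in capitals.
Cdk5r1: CctatCtgaCatgctgCtatgaagaCaCtt
The site counts along it were 58, 3, 209, 3, 88 and 3. The 3 high counts are at RAC and the 3 low ones outside it. Over the whole list, sites with a full context outside RAC had a count of 3 only. Cdk5r2 had 1 site with a count of 3.

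**Figure D5:**
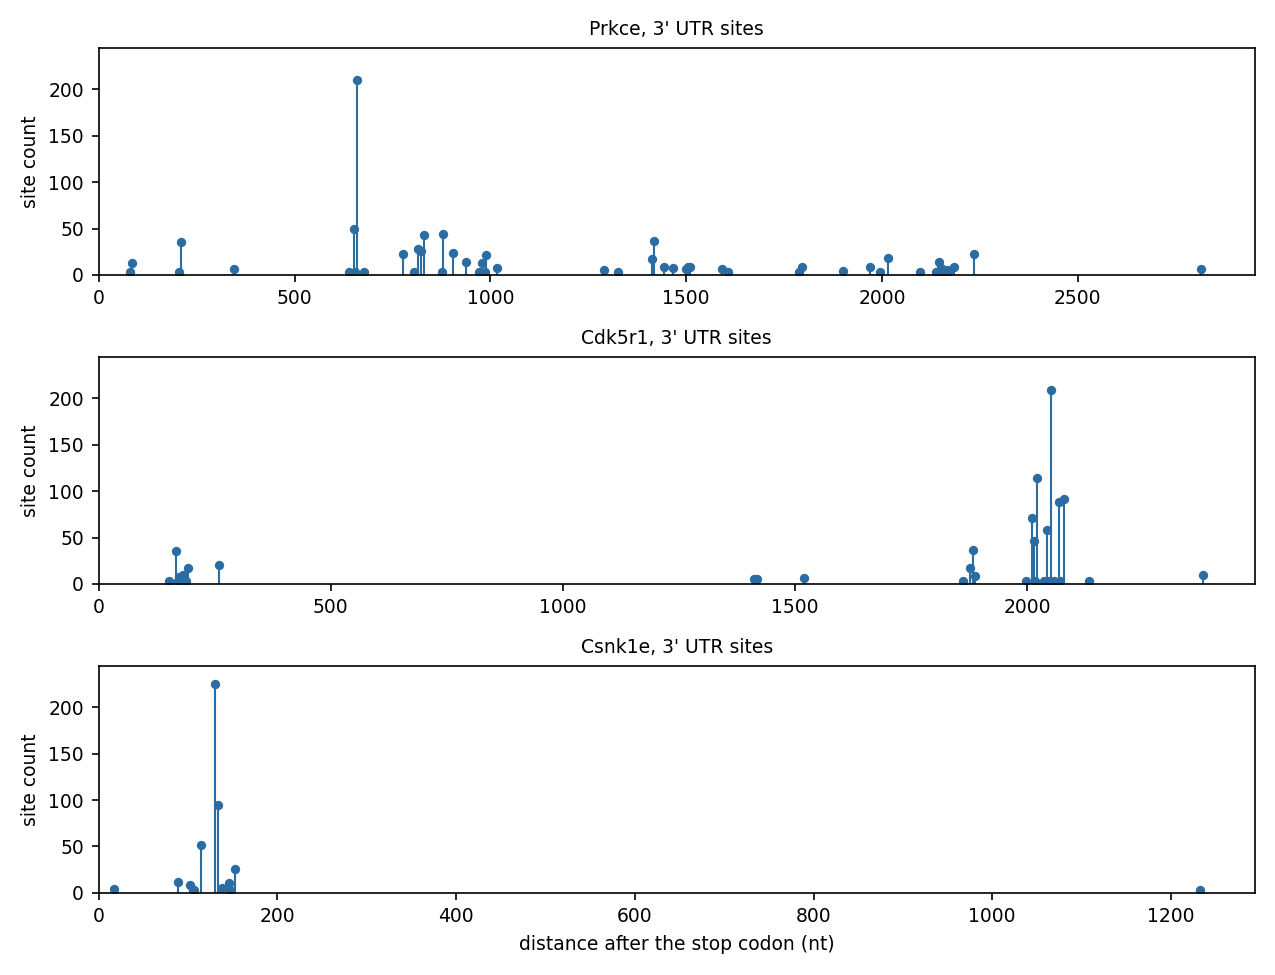
Site count (y axis) against the distance after the stop codon (x axis, nt) for every 3' UTR site of Prkce, Cdk5r1 and Csnk1e. Each gene has 1 site above 200, and the second-highest site, at 49 in Prkce, 114 in Cdk5r1 and 95 in Csnk1e, stands within 30 nt of it.

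Among kinases with Cdk symbols, Cdk12, a kinase of the RNA polymerase II tail, had 6 sites, all in the CDS. Its highest count, 66, lay 4045 nt before the end of the stop codon at a position where reading T changes the amino acid, and the next was 15. Cdk11b had 3 CDS sites, at 20, 18 and 3. Cdk14, a cyclin Y-dependent kinase, had 11 sites with counts from 3 to 9. Cdk17 had 4, Cdk19 had 3, Cdk9 and Cdk13 had 2 each, and Cdk4, Cdk18 and Cdkl1 had 1 each. The cell cycle inhibitors Cdkn1a and Cdkn1b had 4 sites, all in the 3' UTR, and 2 sites, both in the CDS, with highest counts of 18 and 16.

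CaM kinases are switched on by calcium-bound calmodulin. The 7 listed members with Camk symbols, Camkv and Camk2n2 among them, held 70 sites, of which 64 (91.4%) lay in the 3' UTR. Camk2a, Camk2b and Camk2n1 are not among the members. Camk1d had 19, Camkk2, which activates other CaM kinases and AMPK, 15, and Camk2g, the gamma form of CaMKII, 14, all of them in the 3' UTR. Their highest counts were 40, 36 and 17. Camk2d, the delta form, had 9 sites with a highest count of 72, at 1600 nt after the stop codon, and its next counts were 20 and 15. Camkv had 9 sites up to 15, Camk4 had 3 up to 9, and Camk2n2 had 1 at a count of 3. Gsk3b, a kinase that insulin signalling restrains, had 20 sites, 14 of them in the 3' UTR, 1 in the CDS and 5 in the 5' UTR. The highest count, 43, lay 583 nt after the stop codon, and the 5 sites of the 5' UTR stood within 27 nt with counts up to 19. Gsk3a had 1 CDS site with a count of 3.

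MAP kinases act in cascades, in which a MAP3K activates a MAP2K and this a MAP kinase. Map2k1, which activates the ERK kinases, had 9 sites, all in the 3' UTR, with a highest count of 22. The JNK genes Mapk10, Mapk9 and Mapk8 had 8, 7 and 7 sites, with highest counts of 8, 28 and 17. Per kb of 3' UTR they had 1.30, 2.15 and 1.36 sites, and Map2k1 had 9.84. The atypical Mapk4 had 8 sites, 5 of them in the 5' UTR, with counts of 5 or less. Map2k4 and Map2k7, which activate JNK, had 5 and 4 sites. The JNK scaffold Mapk8ip3 had 8, of which 7 lay in the CDS, with highest counts of 17 and 15. Further up, Map4k4 had 3 sites, Map3k12 had 2, and Map3k2, Map3k5, Map3k7 and Map4k3 had 1 each, none above a count of 6. Of the 47 sites of the MAP kinases and their scaffold, 32 (68.1%) lay in the 3' UTR, and of the 27 of the kinases above them 19 (70.4%).

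The remaining members had few sites. Stk25, a kinase of the germinal centre family, had 8 with a highest count of 17, and Stk16 and Stk38 had 1 each. Mark3 and Mark2, which phosphorylate microtubule-associated proteins, had 5 and 1, and none of these 6 was in the 3' UTR. Dyrk2 had 1 with a count of 6. At 3 sites an exon of another listed gene lies on the opposite strand: Tuba4a at Stk16, Tspan31 at Cdk4 and Pcbp2 at a site of Map3k12. The single site of Gsk3a lies opposite an exon of an unlisted gene. At the sites of Cdk4, Map3k12 and Gsk3a the base on the listed strand is a C, as at all 512 member sites with a full context. These 3 sites have a count of 3, and those of Cdk4 and Map3k12 lie outside RAC. Which strand was edited was not tested. The Stk16 site lies at the end of its annotated transcript and has no full context here.

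Some close relatives differed widely in their number of sites and others did not; the sets were drawn up after the values were seen and are given as descriptions. Prkca had 25 sites and Prkcb 23, Camk2g 14 and Camk2d 9, and the JNK genes 8, 7 and 7. Gsk3b had 20 sites and Gsk3a 1, Cdk5r1 30 and Cdk5r2 1, Prkacb 26 and Prkaca 1. The 3' UTRs differ too: 5515 nt in Gsk3b and 596 nt in Gsk3a, 2752 nt in Cdk5r1 and 1525 nt in Cdk5r2, 3014 nt in Prkacb and 1026 nt in Prkaca. Per kb of 3' UTR, Cdk5r1 had 10.9 sites and Cdk5r2 0.656. Prkar1b, with a 3' UTR of 1353 nt, had 35 sites there, and Prkar2a, with 3442 nt, had 1. Whether length accounts for such differences was not tested.

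Lists of the wider pathways were set beside these genes. Of 91 annotated other serine-threonine kinases 51 had a site, and 9 of these had 10 or more; their median was 4 sites. Dclk1, a microtubule-binding kinase, led with 54, then the BMP receptor Bmpr2 with 38 and Rock2 with 30. Of 30 genes of Ras and Raf signalling 18 had a site (median 2.5), among them the Ras pathway inhibitor Spred1 with 14 and the phosphatase Dusp3 with 13. Of 33 genes of cAMP signalling and PKA anchoring 20 had a site (median 3), led by the phosphodiesterase Pde1a with 38, the adenylyl cyclase Adcy1 with 28 and the PKA inhibitor Pkia with 17. Of 21 cyclins 8 had a site (median 2.5), led by Ccnt1 with 6, followed by Ccnd2 with 4 and Ccnd1 with 3. Over all listed genes other than the members the median was 2.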

How the data were processed

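scDART-seq libraries of 4 sublibraries from 1 pool of cortical cells gave 1 list of edited sites. The aligner was STAR 2.7.5 on mm10, per the submitters' processing notes, and Bullseye was the site caller, per the series text. Each line deposited by the authors holds a position, a strand, a gene symbol and a whole-number count, with no header. What it counts, the filters and the read depth are not stated.

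Sites were placed on GENCODE M21 (mm10 coordinates) with Python 3.11.15. All 516 member sites matched a gene by symbol and strand, and all 512 with a full context had a C on their strand. Regions were taken over protein-coding transcripts with the 3' UTR before the CDS, the 5' UTR and noncoding exons. Distances run from the last base of the stop codon, along the longest coding transcript for shares and along the transcript that gave the region for single sites. RAC cytosines and sites per kb of 3' UTR refer to the longest coding transcript. The conversion between transcript and genome positions was tested on simulated positions. That check did not cover the choice of gene, transcript or region for a site. Shares have Wilson 95% intervals from statsmodels 0.14.6.

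Named by rule were the 25 members richest in sites, the genes holding the 10 highest site counts, 2 per family, members that are not kinases and 3 leading genes per list; the other members are named to account for them, some genes that the rule names are not reported here, and unlisted relatives were chosen after their values were seen. Members and lists were chosen with earlier results of these data known. No p-value was computed, as the list has no replicates. Of 41-nt windows around member sites, 1 occurs in another gene's transcripts. Alternatives tried were a count of 4 or more, RAC sites only, merging within 10 nt, catalytic kinases only, 1 site per gene, other region rules, a 200 nt window, leaving out the leading gene and, added after seeing the data, the 3 leading genes. The CDS share was also added then.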

Additional observations from a re-analysis of the deposited data

How the results depend on the processing

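The median of 3.5 sites per member gene was 3 under each of the 5 alternatives tried for it. The median site count of 5 became 8 with a count of 4 or more, a setting that removes the lowest count, and 9.5 with 1 site per gene, which keeps the highest. The 3' UTR share of 74.6% became 57.8% with 1 site per gene and 68.4% without the 3 genes with the most sites, this last setting chosen after seeing the data. The share within 400 nt of the stop codon became 14.3% for a window of 200 nt. The DRACH share of 56.4% became 71.6% with a count of 4 or more, 70.5% for RAC sites only, 63.4% with sites within 10 nt merged, 65.1% with 1 site per gene and 80.1% with RAC in its place; sites outside RAC drop out or thin out by construction. The CDS share, added after seeing the data, of 19.8% was 35.9% with 1 site per gene and 24.2% without those 3 genes. Read depth and expression are not in the list, which limits any comparison between genes. No paired analysis was possible because sites are not assigned to samples or genotypes; leaving out a replicate could not be run for the same reason.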
